A study of Mus musculus with 15 samples.

Results

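The 3 arrays taken at 110 min were compared with the 3 taken at 50 min after transcription had been blocked in mouse myoblasts, to ask which transcripts were lost in these 60 min. The arrays were paired by replicate number, so that 6 of the 15 arrays of the study entered the comparison as 3 pairs. Of 25175 probe sets, 12544 counted as expressed, as at 0 min they exceeded their array's median in 2 or 3 of the 3 replicates. They included 10822 probe sets with a single gene symbol, which stood for 9879 genes, and a gene with several was represented by its brightest one at 0 min. Around that limit the change was alike, with a median log2 change of -0.33 for the 100 probe sets just inside it and -0.30 for the 100 just outside.

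C2C12 is an established line of mouse myoblasts, the muscle precursors that fuse into myotubes once growth factors are withdrawn. All cells here were of the C2C12 (LKO-1) line, selected in puromycin and kept at low density so that they went on dividing. All had also received 8 µg/mL actinomycin D for 30 min before the 0 min sample was taken, so the times of 50 and 110 min count from the end of that incubation, and no array without the drug was used here. The study ran the time course in triplicate, but neither it nor the labels say whether the 3 came from separate cultures, and the p-values cover only how these arrays vary.

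Actinomycin D binds DNA and stops RNA polymerases, so a transcript made earlier can only persist or be degraded. Most mammalian mRNAs are degraded after their poly(A) tail has been shortened, by removal of the cap and digestion from the 5′ end or by the exosome from the 3′ end. Proteins and small RNAs that bind the 3′ untranslated region set the pace, and AU-rich and GU-rich elements are known for speeding it. Replication-dependent histone mRNAs are the exception, as they have no poly(A) tail and end in a stem-loop, and are known to be degraded quickly when DNA synthesis stops. Transcripts of signal response genes, transcription factors and cell cycle regulators are known to be short-lived in many cells, while those of structural and metabolic proteins are known to be long-lived.

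The deposited value of a probe set is its linear ratio to the 5th percentile of its array, and a value of 1 is thus close to the dimmest signals. The median ratio of the expressed probe sets was 7.51, 7.39 and 7.87 at 50 min in replicates 1, 2 and 3, and 3.91, 4.78 and 5.49 at 110 min. Replicate 1 thus had the lowest array of the 3 at 110 min, and in that replicate the median was higher again at 230 min, at 4.65. Results are therefore given with all 3 pairs, and counts of falls on the deposited scale also without replicate 1 and without that low array alone. Changes of lists and single genes are from all 3 pairs unless stated otherwise. Means under 1.5, close to the reference level, were seen for 1 expressed probe set at 50 min and for 71 (0.566%) at 110 min.

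The labelled cell type was set against its markers. Of 13 myoblast markers on the array, 11 were expressed, Myod1, Myf5, Cdh15, Des and Ncam1 among them, while Msc and Pax3 were below the level limit. Of 30 myotube markers 12 were expressed, with Acta1, Actn3 and Tnnc1 the highest at mean ratios of 7.94, 5.71 and 5.27 at 50 min. The 6 myosin heavy chains of the list (Myh1, Myh2, Myh3, Myh4, Myh7, Myh8) were all below the limit. Of 17 fibroblast and adipocyte markers 5 were expressed. Pparg was the highest at a mean ratio of 10.5 at 50 min, followed by Lpl (8.32), Pdgfra (3.84), Cebpa (3.32) and Mfap5 (2.75). Among those below the limit, Lum and Lep were at 0.987 and 1.07. Ratios were also summed over all markers of a list on the array, including those below the level limit. For myoblasts the sum went from 172 to 192 over the arrays at 50 min to 95.5 to 142 at 110 min. It went from 64.8 to 82.2 to 53.9 to 62.6 for myotubes. For fibroblasts and adipocytes it went from 44.3 to 47.7 to 27.8 to 37.2. Fewer cells and less RNA per cell cannot be told apart in such samples.

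Most transcripts fell on the deposited scale. With limma on log2 ratios, replicates as blocks and Benjamini-Hochberg adjustment over all expressed probe sets, 9489 of 12544 fell (75.6%) and 8 rose (0.0638%). Without replicate 1, 5941 fell (47.4%) and 22 rose (0.175%), and 5934 of the falls were among those called with all 3 pairs. Without the low array alone, 4106 fell (32.7%) and 21 rose (0.167%). Replicates 1, 2 and 3 had a lower ratio at 110 min for 99.8%, 91.5% and 94.6% of these probe sets. It was lower in all 3 pairs for 10947 and higher in all 3 for 13.

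The median log2 change was -0.85, -0.56 and -0.44 in replicates 1, 2 and 3, with a mean of -0.62 ± 0.21 (SD, n = 3 pairs). All 3 pairs pointed down, but an exact sign-flip test over 3 pairs cannot give a two-sided p below 0.25, which is what it gave. From the fit over probe sets the median change was -0.60, so that 65.8% of the ratio of a typical probe set was left after the 60 min. At a constant rate this would be a half-life of 99.2 min within the interval, and without replicate 1 it was 71.3% left and 123 min. These half-lives are relative to the 5th percentile of the array and describe this interval alone. With the 5th percentile subtracted from the ratios, the mean of the 3 medians was -0.78 in place of -0.62, so the fraction left depends on that reference level. For 788 probe sets the fit gave a log2 change of -1 or lower, and 205 of them were that low in each of the 3 pairs.

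**Figure D1:**
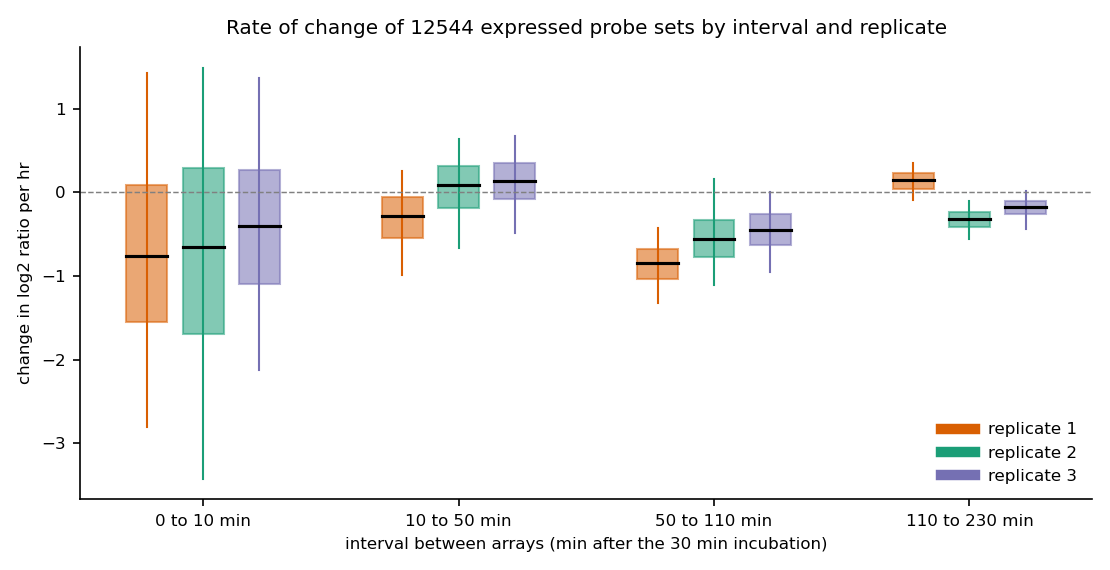
Change in log2 ratio per hr of the 12544 expressed probe sets in 4 intervals, by replicate: boxes span the middle 50% of probe sets, black bars are medians and thin lines run from the 5th to the 95th percentile. Between 50 and 110 min the 3 medians are -0.85, -0.56 and -0.44, from 0 to 10 min -0.76, -0.66 and -0.41, while from 110 to 230 min replicate 1 lies above 0 at 0.14 and the others below.

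The size of the fall depended on the scale, because the whole distribution moved. Dividing each array by its 75th percentile shifted the median change from -0.60 to 0.09, and changes on that scale are relative to the bulk of expressed transcripts. On it 422 probe sets fell (3.36%) and 856 rose (6.82%), where "rose" means relative to the bulk and includes probe sets that fell less than it. Dividing by the array median gave 1593 falls (12.7%) and 25 rises (0.199%), and leaving out any 1 replicate lowered these falls to between 487 and 822. The 422 probe sets, from 342 genes, were also called as falls on the deposited scale, on the array median scale and without replicate 1. The 8 rises were likewise called on each of these scales and without replicate 1.

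The pairs ranked the transcripts in part alike. Across the 12544 probe sets the changes correlated with a Pearson r of 0.50 between replicates 1 and 2, 0.47 between 1 and 3 and 0.38 between 2 and 3. Probe sets of 1 array are not independent, and these values are descriptions with no test. By level at 50 min, the share that fell was 33.6% in the lowest decile (median ratio 2.50), 89.9% in decile 8 (median ratio 16.9) and 61.0% in the highest (median ratio 91.2). The median log2 change in those deciles was -0.37, -0.70 and -0.53.

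Gene lists were counted with 1 probe set per gene. Over all 9879 expressed genes 79.3% fell, 50.0% without replicate 1 and 34.8% without the low array, and relative to the 75th percentile 3.46% fell and 5.08% rose. List counts are set against these shares. The share also depended on level, and in deciles 5 to 9 at 50 min (median ratios 6.69 to 29.3) 86.8% to 89.9% of expressed probe sets fell. Mitochondrial ribosomal, DNA replication, nuclear pore, splicing and proteasome lists had median ratios of 10.4, 14.9, 17.6, 29.5 and 30.0. Their shares with all 3 pairs were thus near those of probe sets of their level. Without the low array the falls changed by over 1.5 times in 28 of 32 lists, and without replicate 1 in 20. List medians below are from all 3 pairs, and without replicate 1 each was smaller in size. For histones it was then -1.01 instead of -1.40, for mitotic regulators -0.67 instead of -0.80. For aminoacyl-tRNA synthetases it was -0.36 instead of -0.57, and over all expressed genes -0.50 instead of -0.62.

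Replication-dependent histones led the falls. All 17 expressed histone genes of 28 on the array fell, 14 of them (82.4%) without replicate 1 and 12 (70.6%) without the low array. Their median log2 change was -1.40 (37.8% left) against -0.60 over all expressed probe sets, with -2.03, -1.22 and -0.84 in replicates 1, 2 and 3. Relative to the 75th percentile, 9 of the 17 fell and 0 rose. Histone genes lie in clusters of nearly identical copies, so the value of 1 gene may hold signal from others.

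H2ac15, a core histone H2A gene, had ratios of 24.3, 15.8 and 20.4 at 50 min and 2.74, 2.44 and 7.97 at 110 min in replicates 1, 2 and 3. The groups did not overlap, and replicate 3 kept the highest level. The log2 change was -2.40 ± 0.23 (SE), 18.98% left (limma adjusted p = 9.0e-15, and 0.00017 without replicate 1). In this fit limma pools the spread over probe sets, with 119.7 prior against 8 residual degrees of freedom. Here and below, the SE is thus not the spread of a gene's own 3 pairs. H1f1 and H1f5 code for linker histones, which bind the DNA between nucleosomes. H1f1 went from 40.4, 38.7 and 40.6 to 6.62, 7.19 and 12.7, a log2 change of -2.24 ± 0.22. H1f5 went from 70.1, 72.1 and 70.1 to 11.97, 12.7 and 27.3, a log2 change of -2.14 ± 0.23. In both genes replicate 3 again fell least, by 1.68 and 1.36 log2, and every value at 110 min lay under every value at 50 min. H2bc14, a core histone H2B gene, went from 28.9, 14.9 and 25.9 to 4.41, 4.94 and 8.43 (log2 change -1.97). The smallest changes of the list were those of H2ac1 (-0.58, which did not pass without replicate 1, limma adjusted p = 0.074, or without replicate 3, 0.17) and H2bc18 (-0.69). H2bc18 had ratios of 12.8, 4.46 and 8.69 at 50 min and 3.60, 3.89 and 8.41 at 110 min, so that its groups overlapped and its fall rested on replicate 1 (log2 change -0.12 without it, limma adjusted p = 0.63).

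Regulators of transcription followed. Of 52 lineage and signal-regulated transcription factors 49 fell (94.2%), 42 without replicate 1 (80.8%) and 40 without the low array (76.9%), with a median log2 change of -0.84. On the 75th percentile scale 10 fell and 0 rose. Id2, an inhibitor of basic helix-loop-helix factors such as the myogenic ones, went from 14.8, 12.3 and 17.9 to 3.06, 2.97 and 5.71, a log2 change of -1.99 ± 0.21 (limma adjusted p = 4.4e-13, and 1.2e-05 without replicate 1). The 110 min values of Id2 were all under its 50 min values. Foxc2, a forkhead factor, and Mef2d, a MADS-box factor of muscle genes, changed by -1.40 and -1.32. Cited2, a transcriptional coregulator that binds CBP and p300, went from 44.5, 52.4 and 44.3 to 9.62, 12.1 and 11.6, with changes of -2.21, -2.12 and -1.93 in the 3 pairs. Its fall was thus much the same in each replicate (log2 change -2.09 ± 0.22). Xbp1, a transcription factor of the unfolded protein response, went from 16.6, 22.2 and 13.8 to 4.29, 5.83 and 5.89 (log2 change -1.70).

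Of 69 chromatin regulators 66 fell (95.7%), 55 without replicate 1 (79.7%) and 50 without the low array (72.5%), with a median of -0.81, and relative to the 75th percentile 7 fell and 0 rose. The largest falls were in Arid5b (-1.53) and Arid1a (-1.31), the latter a subunit of SWI/SNF remodelling complexes, and in the acetyltransferase gene Ep300 (-1.21). Of 178 genes with Zfp symbols, which code for zinc finger proteins, 141 fell (79.2%, near the 79.3% of all genes), 99 without replicate 1 (55.6%) and 79 without the low array (44.4%), with a median of -0.59, close to that of all expressed probe sets. Zfp146, Zfp637 and Zfp330 fell furthest among them, by 1.55, 1.39 and 1.29 log2.

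Of 45 immediate early and growth factor response genes 37 fell (82.2%, near the share of all genes), 24 without replicate 1 (53.3%) and 23 without the low array (51.1%), with a median of -0.70, and relative to the 75th percentile 8 fell and 1 rose. Ccn1, a secreted matricellular protein gene induced by serum, went from 17.3, 23.7 and 11.98 to 3.57, 5.69 and 4.43. All 3 pairs fell, by 2.28, 2.06 and 1.44 log2, and the fit gave -1.92 ± 0.22 (limma adjusted p = 1.7e-11). Mcl1, an anti-apoptotic member of the BCL2 family, went from 18.9, 20.2 and 20.6 to 5.15, 7.08 and 7.29 (log2 change -1.63). Ifrd1 changed by -1.51. Jun and Myc, both transcription factors of the growth response, changed by -1.15 and -1.19. Myc had ratios of 6.73, 4.79 and 6.81 at 50 min and 2.26, 2.25 and 3.66 at 110 min, without overlap.

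Of 42 feedback inhibitors of signalling 36 fell (85.7%), 29 without replicate 1 (69.0%) and 28 without the low array (66.7%), with a median of -0.73, and relative to the 75th percentile 6 fell and 1 rose. Spred2, an inhibitor of Ras signalling to MAP kinases, went from 12.3, 13.3 and 13.98 to 3.93, 3.03 and 4.49, a log2 change of -1.80 ± 0.21. Btg1, an antiproliferative protein gene, and Dusp7, a MAP kinase phosphatase gene, changed by -1.57 and -1.46. Smad7, an inhibitor of TGF-beta signalling, had ratios of 4.24, 2.57 and 4.07 at 50 min and 1.79, 2.32 and 2.29 at 110 min. Its log2 change of -0.74 passed the test with all pairs (limma adjusted p = 0.0027) and not without replicate 1 (-0.49, adjusted p = 0.066).

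All 52 expressed mitotic regulators fell, 41 without replicate 1 (78.8%) and 28 without the low array (53.8%), with a median of -0.80. Against the 75th percentile 12 fell and 0 rose. Wee1, the kinase that holds back entry into mitosis, had ratios of 9.98, 8.49 and 11.1 at 50 min and 2.54, 3.49 and 3.41 at 110 min, a log2 change of -1.65 ± 0.22 (limma adjusted p = 2.2e-09, and 0.00013 without replicate 1). Fbxo5, an inhibitor of the anaphase-promoting complex, went from 5.61, 6.61 and 7.16 to 1.85, 2.15 and 2.53 (log2 change -1.57). Aurka, a kinase of the centrosome and spindle, went from 18.2, 15.95 and 21.4 to 6.24, 4.58 and 8.91 (-1.54). Each of these genes was lower on every array at 110 min than on any at 50 min. Aurkb, the kinase of the chromosomal passenger complex, changed less, by -0.74, and the spindle checkpoint gene Bub3 by -0.96. The condensin subunits Smc4 and Smc2 changed least of the list, by -0.49 and -0.48. The call of Smc4 was lost without any 1 of the 3 replicates (limma adjusted p = 0.067 to 0.16), that of Smc2 without replicate 2 or 3, and relative to the 75th percentile their values were 0.21 and 0.22.

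Of 30 genes of G1 and entry into S phase 26 fell (86.7%), with a median of -0.68, led by E2f8 (-1.42), the replication licensing factor Cdt1 (-1.35) and E2f3 (-1.23). Of 45 DNA replication genes 42 fell (93.3%), with a median of -0.70, led by Rfc4 (-1.31), Dbf4 (-1.14) and Mcm10 (-1.08). Without replicate 1 the counts were 18 (60%) and 24 (53.3%), and without the low array 15 and 20. Of 22 p53 targets 20 fell (90.9%), 15 without replicate 1 (68.2%) and 13 without the low array, with a median of -0.79. Plk2, a polo-like kinase, went from 9.49, 7.45 and 6.31 to 2.69, 2.94 and 3.16 (log2 change -1.39), and the phosphatase gene Ppm1d and Pml changed by -1.19 and -1.06. Of 27 BCL2 family and death regulators 21 fell (77.8%, near the share of all genes), 16 without replicate 1 and 11 without the low array, with a median of -0.60, and after Mcl1 the largest falls were those of Bak1 (-1.09) and Bcl2l1 (-1.06). Of 46 F-box adaptors, which bring substrates to ubiquitin ligases, 41 fell (89.1%), 25 without replicate 1 (54.3%) and 22 without the low array, with a median of -0.68. After Fbxo5 the largest falls were in Fbxo42 and Fbxl14, both -1.15.

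**Figure D2:**
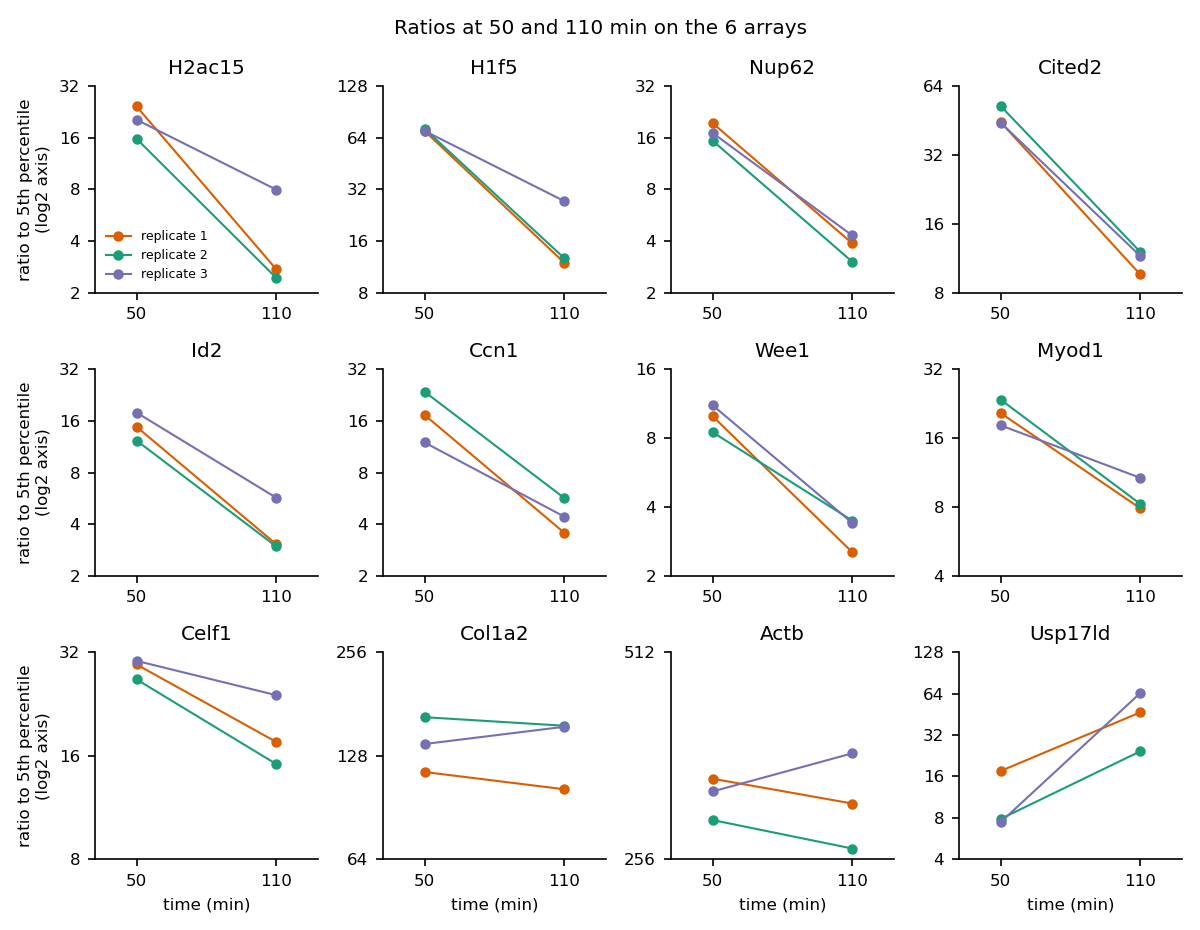
Ratio to the 5th percentile of the array (log2 axis, own range in each panel) at 50 and 110 min for 12 genes, with 1 line per replicate. H2ac15, H1f5, Nup62, Cited2, Id2, Ccn1, Wee1 and Myod1 fall in all 3 replicates without overlap, Celf1 falls by 0.63 log2, Col1a2 and Actb have lines of both directions, and Usp17ld goes up in all 3.

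Among the myogenic factors, Myod1, which commits cells to the muscle lineage, had ratios of 20.6, 23.6 and 18.2 at 50 min and 7.90, 8.26 and 10.7 at 110 min. Its log2 change was -1.22 ± 0.22, 43.0% left (limma adjusted p = 7.8e-06, and 0.0023 without replicate 1). Myf5, the related factor, and Six4 changed by -0.97 and -0.80. Of 11 expressed myoblast markers 9 fell (81.8%), 4 without replicate 1 and 3 without the low array, with a median of -0.56. Myog, the factor of early differentiation, was low throughout, at 2.15, 1.89 and 2.49 at 50 min and 1.47, 1.97 and 1.74 at 110 min. It did not pass the test (log2 change -0.34, limma adjusted p = 0.13). Of 12 expressed myotube markers 4 fell (33.3%), 1 without replicate 1 and 1 without the low array, with a median of -0.31, and relative to the 75th percentile 3 rose. The list was dim, with a median ratio of 2.785 at 50 min. In the lowest decile by level (median ratio 2.50), 33.6% of expressed probe sets fell, with a median of -0.37. In decile 2 (median ratio 3.19) 61.3% fell, with a median of -0.50. The median of the list lies between these levels, and members such as Acta1 (7.94) were brighter, so the list spans levels with different shares. The 5 fibroblast and adipocyte markers all fell, 2 without replicate 1 and 2 without the low array.

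Celf1 codes for CUGBP1, a protein that binds GU-rich elements and is known to speed mRNA decay in myoblasts. Its own transcript had ratios of 29.5, 26.7 and 30.2 at 50 min and 17.6, 15.1 and 24.0 at 110 min. The groups did not overlap, and the log2 change was -0.63 (limma adjusted p = 0.0086, and 0.027 without replicate 1), close to the median of all expressed probe sets. Without replicate 2 it was -0.54 (adjusted p = 0.062), and with the low 110 min array alone left out -0.42 (adjusted p = 0.092), neither past the threshold. Relative to the 75th percentile its change was 0.06 (adjusted p = 0.71). Of other genes that the study names, Rnd3, a small GTPase gene, was at -1.28, and Lmo4, a LIM-only factor gene that it names with its immunoprecipitation data, at -1.08. Npm1, named there too, the nucleolar protein nucleophosmin, had ratios of 82.7, 65.4 and 83.1 at 50 min and 65.7, 39.1 and 94.4 at 110 min. Its groups overlapped and it did not pass (log2 change -0.30, limma adjusted p = 0.19). Gdpd3 and Igf1 were below the level limit, with ratios of at most 1.49 and 1.97 at 50 min.

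Genes of RNA processing and transport fell at about the rate of the whole or somewhat faster. Of 61 splicing factors and kinases 56 fell (91.8%), 41 without replicate 1 (67.2%) and 29 without the low array (47.5%), with a median of -0.75, led by the kinase gene Dyrk1a (-1.31), the SR protein gene Srsf4 (-1.22) and the branch point protein gene Sf1 (-1.20). Of 61 genes of the mRNA decay machinery 52 fell (85.2%), 36 without replicate 1 (59.0%) and 23 without the low array (37.7%), with a median of -0.66. Pnrc2, an adaptor of decapping, Exosc8, an exosome subunit gene, and Zfp36l2, which codes for a protein that binds AU-rich elements, changed by -1.27, -1.20 and -1.14. Pabpc1, the cytoplasmic poly(A) binding protein, had the smallest change of that list. Its ratios were 245, 242 and 259 at 50 min and 218, 212 and 263 at 110 min (log2 change -0.11, limma adjusted p = 0.60), and those of Khsrp changed by -0.24 (adjusted p = 0.27). Of 52 genes of the nuclear pore and nuclear transport 47 fell (90.4%), 29 without replicate 1 (55.8%) and 17 without the low array (32.7%, under the 34.8% of all genes), with a median of -0.68.

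Nup62, a central channel nucleoporin, stood apart in that list. It had ratios of 19.5, 15.4 and 17.1 at 50 min and 3.88, 3.03 and 4.31 at 110 min, and fell by 2.33, 2.34 and 1.98 log2 in the 3 pairs. The fit gave -2.22 ± 0.21, 21.5% left (limma adjusted p = 4.2e-15, and 1.6e-06 without replicate 1). The next of the list were Pom121 (-1.16) and the export cofactor gene Nxt1 (-1.13). Of the other large falls, Tmem11, a mitochondrial inner membrane protein gene, went from 17.98, 12.5 and 15.6 to 3.65, 2.89 and 4.80 (log2 change -2.04). Olfr767, annotated as an olfactory receptor, went from 5.95, 4.16 and 8.44 to 1.62, 1.92 and 1.34 (-1.88), so that at 110 min it was near the reference level.

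**Figure D3:**
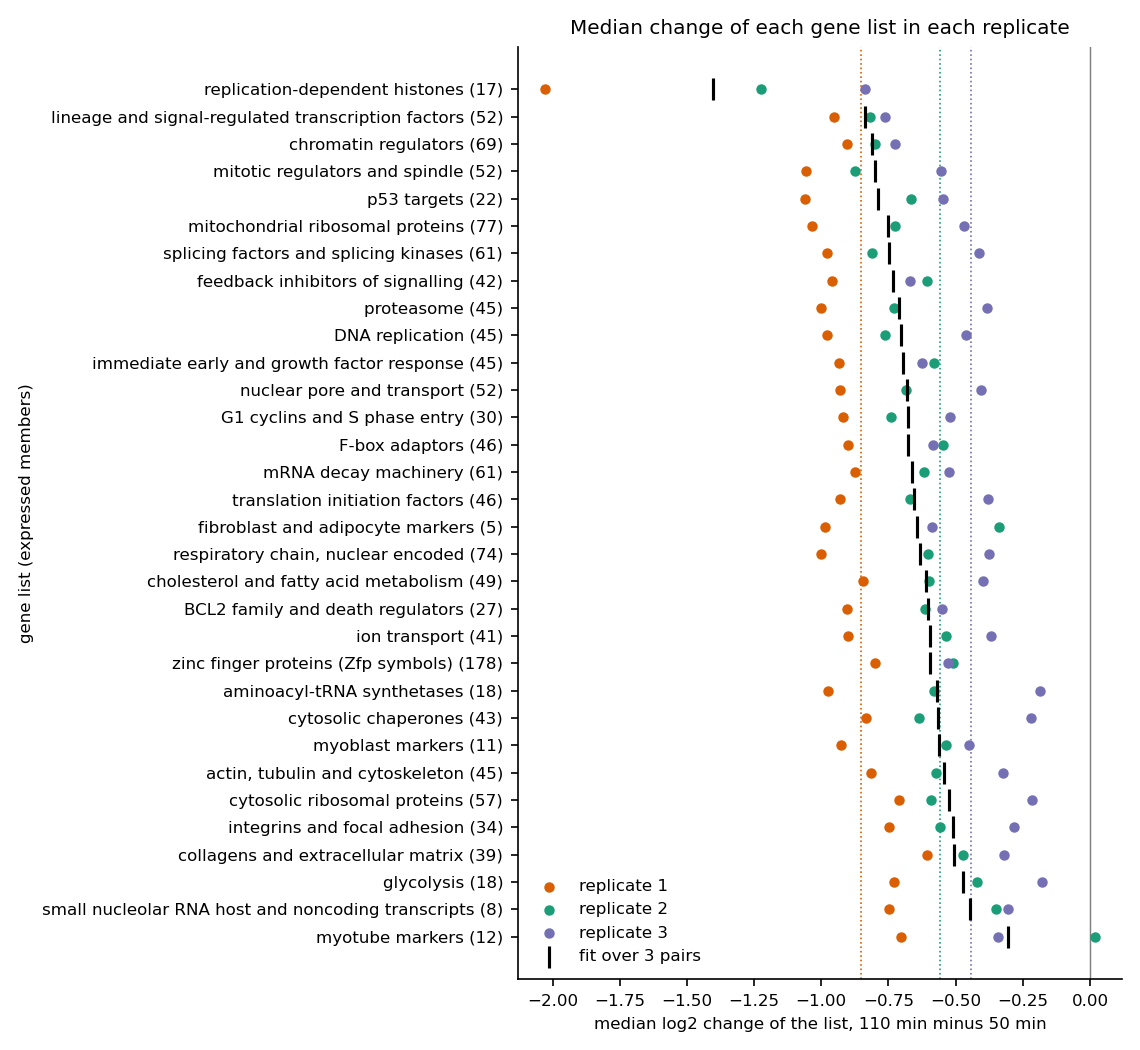
Median log2 change between 50 and 110 min of the expressed members of each gene list in each replicate (points) and in the fit over 3 pairs (black bars), with dotted lines at the medians of all expressed probe sets. Histones lie furthest left at -1.40, and myotube markers furthest right at -0.31, where replicate 2 is at 0.02.

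Ribosomal protein genes were counted separately for the cytosol and the mitochondrion. Of 57 cytosolic ribosomal protein genes 31 fell (54.4% against 79.3% of all genes), 20 without replicate 1 (35.1%) and 12 without the low array (21.1%), with a median of -0.52 (69.6% left). The list was bright, with a median ratio of 117 at 50 min. In the highest decile by level, 61.0% of expressed probe sets fell, with a median of -0.53, so the list was near probe sets of its level. On the scale of the 75th percentile 0 fell and 14 rose. Rps19, Rpl36 and Rpl29 had the largest falls, -0.99, -0.95 and -0.93. Rps2 had ratios of 217, 199 and 229 at 50 min and 199, 205 and 279 at 110 min (log2 change 0.07, limma adjusted p = 0.76). Rplp2 was at 2.43, 2.12 and 2.42 and then 2.46, 2.78 and 2.33, a low level close to the reference, with a log2 change of 0.12 (adjusted p = 0.59). Ribosomal protein genes have many processed pseudogenes of near-identical sequence, so their values may hold signal from copies. Of 77 mitochondrial ribosomal protein genes 71 fell (92.2%), 51 without replicate 1 (66.2%) and 38 without the low array (49.4%), with a median of -0.75, and relative to the 75th percentile 5 fell and 0 rose. Mrpl51, Mrps34 and Mrpl41 led with -1.24, -1.20 and -1.19.

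Of 74 nuclear genes of the respiratory chain 60 fell (81.1%, near the share of all genes), with a median of -0.63, led by 3 subunit genes of complex I, Ndufs8 (-1.16), Ndufs5 (-1.13) and Ndufa11 (-1.05). Without replicate 1 the count was 29 (39.2%) and without the low array 22 (29.7%). Of 45 proteasome genes 39 fell (86.7%), 24 without replicate 1 (53.3%) and 13 without the low array (28.9%), with a median of -0.71, led by the ATPase genes Psmc1 (-1.19) and Psmc6 (-1.04) and by Psmg1 (-1.02). Of 43 cytosolic chaperone genes 32 fell (74.4%), 14 without replicate 1 (32.6%) and 9 without the low array, with a median of -0.57. The DnaJ cochaperone genes Dnajb1 and Dnajb4 changed by -1.51 and -1.43, well beyond that median, and the prefoldin subunit gene Pfdn5 by -1.15. Of 46 translation initiation factor genes 37 fell (80.4%), 23 without replicate 1 (50.0%) and 18 without the low array (39.1%), close to the shares of all genes, with a median of -0.65, led by Eif3m (-1.07), Eif3k (-1.06) and Eif2b2 (-1.04). Of 18 aminoacyl-tRNA synthetase genes 14 fell (77.8%), 4 without replicate 1 (22.2%) and 3 without the low array, with a median of -0.57. Farsb, Iars and Cars had the largest falls, of 0.95, 0.92 and 0.78 log2.

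Of 18 glycolysis genes 9 fell (50.0%), 3 without replicate 1 (16.7%) and 2 without the low array, with a median of -0.47, led by the glucose transporter gene Slc2a1 (-0.85) and the phosphofructokinase gene Pfkp (-0.70). Relative to the 75th percentile 0 of the 18 fell and 3 rose. Without the low array Pfkp was at -0.35 and did not pass (limma adjusted p = 0.18). Of 49 genes of cholesterol and fatty acid metabolism 37 fell (75.5%, near the share of all genes), 19 without replicate 1 (38.8%) and 9 without the low array (18.4%), with a median of -0.61. Sqle, Fdft1 and Msmo1, all enzymes of cholesterol synthesis, changed by -1.14, -0.96 and -0.89. Of 41 ion transport genes 31 fell (75.6%, likewise near it), 18 without replicate 1 (43.9%) and 8 without the low array (19.5%), with a median of -0.59, led by Atp6v1d (-1.003), Slc20a1 (-0.93) and Atp6v1b2 (-0.90).

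Matrix and cytoskeleton transcripts were among those that changed least by the median of their list. Of 39 genes of collagens and extracellular matrix 23 fell (59.0%), 9 without replicate 1 (23.1%) and 0 without the low array, with a median of -0.51 (70.4% left). Relative to the 75th percentile 0 fell and 11 rose. The largest falls were those of the protease inhibitor genes Timp2 and Timp3, at -0.67 and -0.66. Without the low array they were at -0.44 and -0.46 and did not pass (limma adjusted p = 0.072 and 0.060), and without the replicate block Timp3 did not either (adjusted p = 0.098). Col1a2, a chain of type I collagen, had ratios of 115, 166 and 138 at 50 min and 102, 157 and 155 at 110 min, so that its groups overlapped and 2 of 3 pairs were lower. The log2 change was -0.03 (limma adjusted p = 0.90) on the deposited scale and 0.67 relative to the 75th percentile (adjusted p = 0.0019). Col5a2 was at -0.06 and 0.63 on these scales. Of 34 integrin and focal adhesion genes 24 fell (70.6%), 11 without replicate 1 (32.4%) and 8 without the low array, with a median of -0.51, led by the GTPase gene Rhob (-1.37), the adaptor gene Bcar1 (-1.20) and Tns3 (-0.91). Relative to the 75th percentile 2 of the 34 fell and 5 rose.

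Of 45 genes of actin, tubulin and the cytoskeleton 28 fell (62.2%), 17 without replicate 1 (37.8%) and 10 without the low array, with a median of -0.54, and relative to the 75th percentile 1 fell and 7 rose. Myl12b and Myl9, regulatory light chains of nonmuscle and smooth muscle myosin, changed by -1.20 and -0.91, and Tubg1, the gamma-tubulin of the centrosome, by -0.93. Actb, the cytoplasmic actin, had ratios of 335, 292 and 321 at 50 min and 308, 265 and 365 at 110 min. Its values overlapped, with a log2 change of -0.02 (limma adjusted p = 0.91). Vim, the intermediate filament protein vimentin, had ratios of 286, 284 and 280 at 50 min and 269, 258 and 309 at 110 min, with a log2 change of -0.03 (adjusted p = 0.90). Both were at 0.67 relative to the 75th percentile.

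Of the 8 expressed small nucleolar RNA host and noncoding transcripts 4 fell, 2 without replicate 1 and 2 without the low array, with a median of -0.45. Snhg5, a host of small nucleolar RNAs, changed by -1.13. Malat1, a nuclear noncoding RNA, had ratios of 96.7, 135 and 102 at 50 min and 79.0, 131 and 125 at 110 min (log2 change -0.02, limma adjusted p = 0.94). Rmrp, the RNA of a ribonucleoprotein that cleaves RNA, changed by -0.19 (adjusted p = 0.39).

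**Figure D4:**
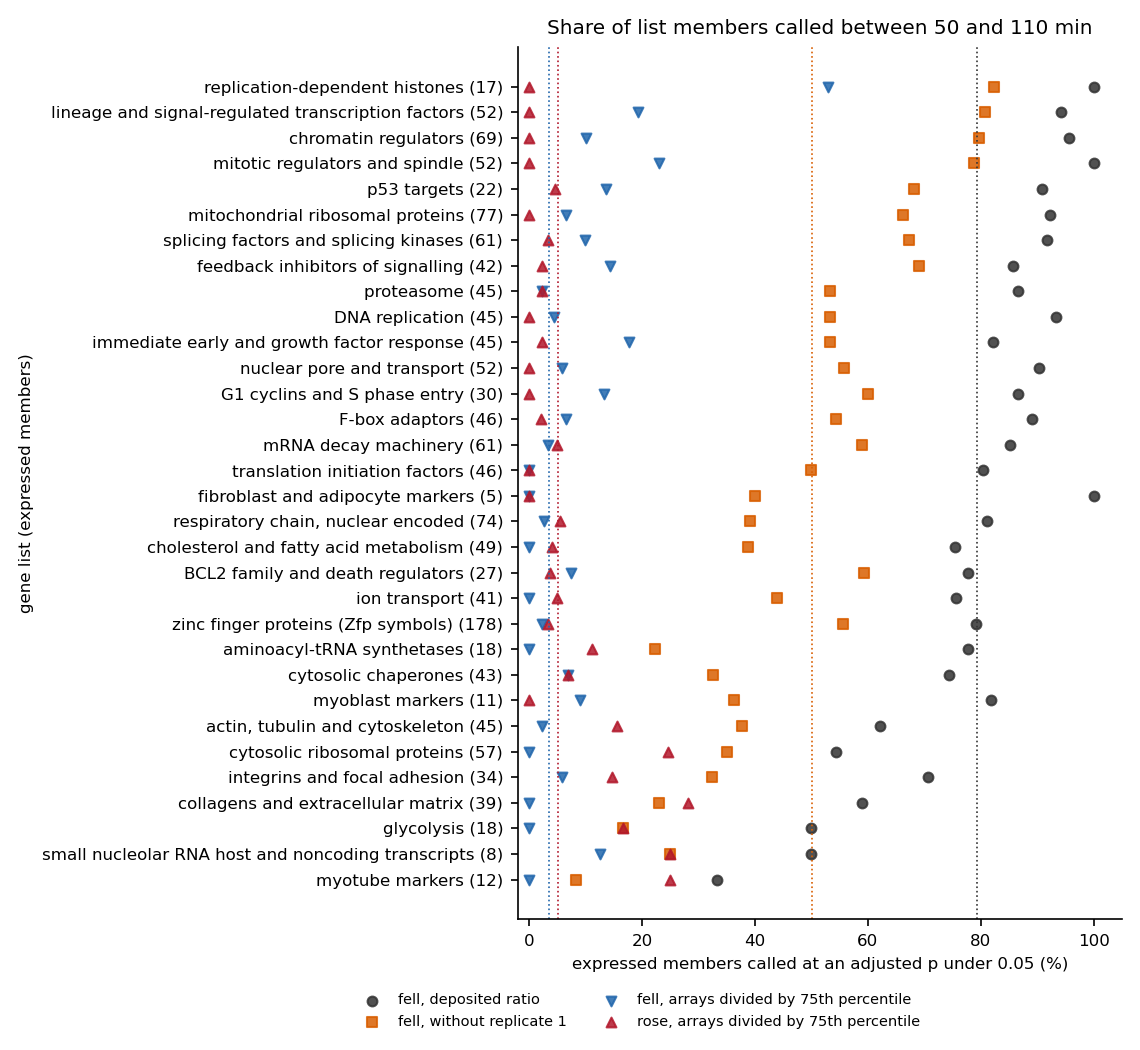
Share of the expressed members of each list that passed an adjusted p of 0.05: falls with all pairs (circles), falls without replicate 1 (squares), and falls and rises relative to the 75th percentile (triangles down and up), with dotted lines at the same shares of all 9879 genes. Histones have 17 of 17, 14, 9 and 0, and cytosolic ribosomal proteins 31 of 57, 20, 0 and 14.

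Few transcripts had higher ratios at 110 min. Of the 8 probe sets that rose, 2 were the chosen probe set of a gene with a single symbol. Usp17ld, one of a family of near-identical deubiquitinase genes, had ratios of 17.5, 7.84 and 7.41 at 50 min and 46.8, 24.4 and 64.6 at 110 min. The groups did not overlap, and the log2 change was 2.06 ± 0.23, 4.17-fold higher (limma adjusted p = 7.5e-12, and 7.7e-05 without replicate 1). Its value may hold signal from other copies of the family. AY036118 went from 17.3, 15.3 and 15.8 to 43.2, 18.04 and 46.1, with replicate 2 rising least (log2 change 1.04, adjusted p = 0.00012, and 0.014 without replicate 1). Another was a further probe set of Myo18b, and the remaining 5 had no single symbol here. Macrod2, Anp32-ps and Aldh3b3 were higher in all 3 pairs without passing the test, at 0.45, 0.40 and 0.30 log2 (adjusted p = 0.054, 0.078 and 0.18).

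The interval was set against its neighbours, which share arrays with it: the 50 min arrays end the earlier one and the 110 min arrays begin the later one. The median rate of expressed probe sets, as log2 per hr, was -0.02 ± 0.23 (SD, n = 3 replicates) from 10 to 50 min, -0.62 ± 0.21 from 50 to 110 min and -0.12 ± 0.24 from 110 to 230 min, as the plot of rates by interval shows. In replicates 1, 2 and 3 the earlier interval gave -0.29, 0.09 and 0.14, and the later one 0.14, -0.32 and -0.18. Of these 3 intervals, that between 50 and 110 min had the lowest rate in each replicate. Without replicate 1 the means were 0.12, -0.50 and -0.25. The opening interval from 0 to 10 min, over which the median changed by -0.10 log2, had a rate like that between 50 and 110 min, at -0.61 ± 0.18 (-0.53 without replicate 1). Its values of -0.76, -0.66 and -0.41 were lower than those of 50 to 110 min in replicate 2 only.

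In the limma test of the difference from the 10 to 50 min rate, 0 probe sets were steeper (0%) and 0 shallower after adjustment, and 1845 and 12 had an unadjusted p under 0.05. With array weights 3781 were steeper and 38 shallower, so the count depended on how the arrays were weighted. Those weights were very uneven, at 0.16, 0.050 and 1.79 for replicates 1, 2 and 3 at 110 min, so that replicate 3 dominated that time. Replicate 3 at 230 min had a weight of 0.00074. Against the 110 to 230 min rate, 685 were steeper between 50 and 110 min (5.46%) and 4 shallower (0.0319%). Without replicate 1, whose 110 min array was the low one and ended the one interval and began the other, both counts were 1. Without replicate 3 they were 42 and 1, and without the replicate block 2 and 0. Of the 17 histone genes 10 were among the 685, and of the 57 cytosolic ribosomal genes 4. The steepest by this difference were Olfr767 (-1.95 log2 per hr), H2ac15 (-1.90), Xlr (-1.77), H2bc14 (-1.76) and Nup62 (-1.75). Olfr767 was already near the reference level at 110 min, at 1.62, 1.92 and 1.34, and at 230 min it was at 2.00, 1.48 and 1.83, so that a further fall could not have been measured and its place in this order is limited by that level. H2ac15 and Nup62 also came near it, with 1.57 to 2.23 and 1.56 to 2.24 at 230 min. Among the shallower, Usp17ld rose between 50 and 110 min and then had a rate of -0.36 log2 per hr, a difference of 2.42 (adjusted p = 2.4e-08).

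Lists differed in how their rates were spread over the intervals, given here as medians of their members and with no test. Immediate early genes had -0.76 log2 per hr from 10 to 50 min, -0.70 from 50 to 110 min and -0.16 afterwards, so that only part of their fall came in the 60 min studied here. Feedback inhibitors had -0.51, -0.73 and -0.14. Histones had -0.63, -1.40 and -0.24. Mitochondrial ribosomal protein genes had 0.09, -0.75 and -0.15 and respiratory chain genes 0.21, -0.63 and -0.02, with no fall in the earlier interval. Over all expressed probe sets the medians were -0.02, -0.60 and -0.12, so that the near absence of an early fall was common to the whole. Cytosolic ribosomal protein genes had 0.13, -0.52 and -0.01, so that by the median they fell in the deposited ratio between 50 and 110 min and hardly before or after it. Among single genes, Plk2 was at -2.60, Ccn1 at -2.23 and Fbxo5 at -2.18 log2 per hr from 10 to 50 min, while Myod1 was at -0.01 before 50 min and -0.48 after 110 min.

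**Figure D5:**
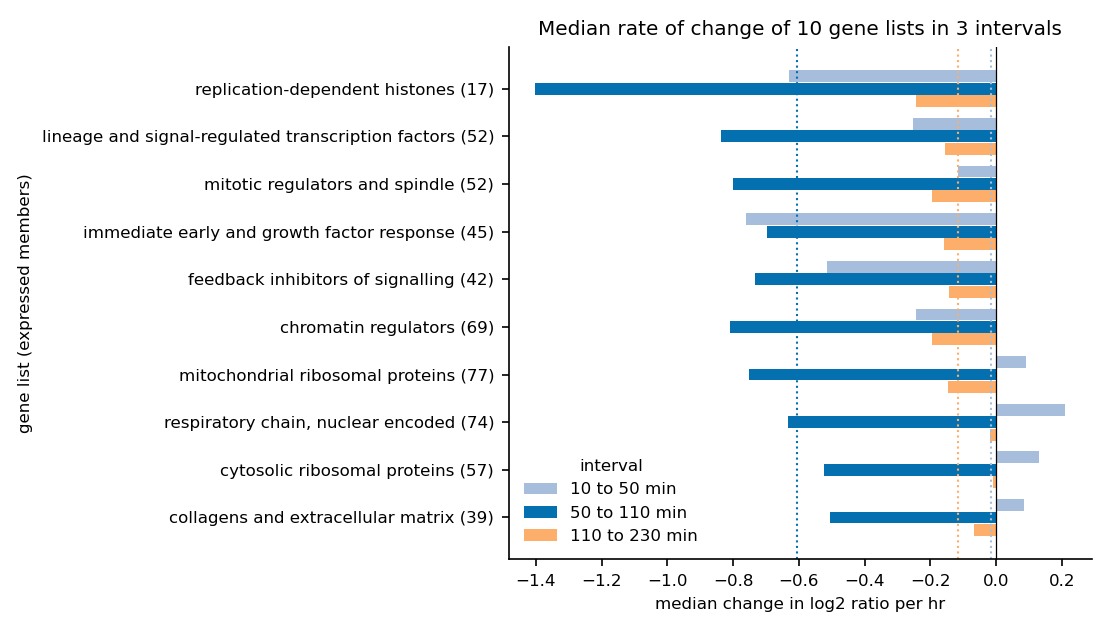
Median rate (log2 per hr) of 10 gene lists from 10 to 50, 50 to 110 and 110 to 230 min, as bars from 0, with dotted lines at the medians of all expressed probe sets. Immediate early genes have -0.76 and -0.70 in the first pair of intervals, and cytosolic ribosomal protein genes 0.13 and -0.52.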

How the data were processed

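RNA of proliferating C2C12 cells was hybridized by the authors to 15 Affymetrix Mouse Gene 1.0 ST arrays, for 5 times and 3 replicates. The deposited table holds linear ratios, for which the authors set every probe set against the 5th percentile of the same array. How probe sets were summarised and corrected for background, and with which software, is not given in the sources used here. Detection p-values were not used, and precision is limited by the number of arrays.

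Of 25175 probe sets, 21044 had a single symbol in the platform annotation, 1492 several and 2639 none, and 20959 were matched to names of assembly GRCm38.p6. Log2 ratios were fitted with limma 3.58.1 in R 4.3.3, with time as a factor, the replicate as a block, all 15 arrays, eBayes and Benjamini-Hochberg adjustment at 0.05 over 12544 expressed probe sets. Tables were made with pandas 2.3.3 and numpy 2.4.6 in Python 3.11.15. The replicate numbers mark the time courses that the study fits separately, and deviations of same-numbered arrays at 50 and 110 min correlated over 0.1 in 3 of 3 pairs (median 0.41). On simulated data over 12544 probe sets the fit recovered 6% of changes of -0.5 log2, 56% of -1, 100% of -2 and 78% of 1, with 2 false calls. There only 50 probe sets per size were changed, the noise was independent between probe sets, and no array was shifted as a whole. The real arrays did shift as a whole, so these rates need not hold for them.

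Members, lists and tests were chosen with earlier results of these data known. By rule the text draws its genes from the 12 largest falls and 12 largest rises (where fewer passed, those higher in all 3 pairs), the 3 largest falls and the 2 smallest of each list, the 5 largest differences between intervals, and genes the study names. Where the smallest of a list are not named, they lie within the counts given. Members without a single-symbol probe set were not analysed here. Alternatives covered scaling, level filter, replicates, block, weights and variance model.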

Additional observations from a re-analysis of the deposited data

Results flagged for a closer look

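The rate between 50 and 110 min differed from that between 110 and 230 min, by the limma test of the difference itself, for 685 probe sets that were steeper in the earlier interval and 4 that were shallower. Both intervals use the 110 min arrays, of which replicate 1 was low, and without that replicate 1 probe set was called in each direction. With only that array left out, 4 were steeper and 1 shallower. The cause of the difference between the intervals was not tested. Groups of 3 arrays are too small for a test of single outlying samples.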

How the results depend on the processing

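Leaving out replicates 1, 2 and 3 in turn gave 5941 to 7927 falls and 3 to 22 rises. It gave 487 to 822 falls and 7 to 28 rises relative to the array median, and median changes (means over pairs) of -0.70 to -0.50. Against the 10 to 50 min rate it gave 0 to 2 steeper and 0 shallower probe sets, and against the 110 to 230 min rate 1 to 471 steeper and 1 to 4 shallower. Leaving out only the low 110 min array of replicate 1 gave 4106 falls and 21 rises, 341 falls relative to the array median, and 4 steeper and 1 shallower against the later interval, and it changed the falls of 28 of 32 gene lists by over 1.5 times. Without the replicate block there were 7929 falls and 4 rises, 721 falls and 9 rises relative to the array median, and 2 steeper and 0 shallower against the later interval.

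Dividing by the array median gave 1593 falls, 25 rises, a median change of -0.28, and 16 steeper and 2 shallower against the later interval. Dividing by the 75th percentile gave 422 falls, 856 rises, a median change of 0.080 (mean over pairs), 1 steeper and 2 shallower against the earlier interval, and 20 and 10 against the later. With the 5th percentile subtracted there were 531 falls and 120 rises relative to the array median, with 2 and 415 steeper against the earlier and later intervals. With 6 arrays only there were 15 rises, and 55 relative to the array median, and the tests between intervals need the other arrays. With array weights, a fit that stopped before its tolerance, there were 21 rises, 320 falls and 9 rises relative to the array median, 3781 steeper and 38 shallower against the earlier interval, and 42 steeper against the later. With no level filter there were 661 rises relative to the array median, a median change of -0.33, and 58 steeper and 0 shallower against the later interval. A stricter filter gave 4972 falls, fewer because fewer probe sets were tested, with 16 rises relative to the array median, 1 steeper against the earlier interval, and 289 steeper and 2 shallower against the later. A trended, robust eBayes gave 63 rises relative to the array median and 2 steeper against the earlier interval. The cause of the other differences was not tested.

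Some genes changed sign. With arrays divided by the 75th percentile the log2 change was 0.36 for Myog, 0.21 for Smc4, 0.22 for Smc2, 0.58 for Pabpc1, 0.46 for Khsrp, 0.51 for Rmrp, 0.68 for Malat1, 0.0074 for H2bc18, 0.12 for H2ac1, 0.024 for Timp2, 0.040 for Timp3, 0.63 for Col5a2, 0.67 for Col1a2, 0.67 for Vim, 0.67 for Actb, 0.40 for Npm1 and 0.065 for Celf1. With the array median the log2 change was 0.0069 for Myog, 0.23 for Pabpc1, 0.10 for Khsrp, 0.15 for Rmrp, 0.33 for Malat1, 0.28 for Col5a2, 0.31 for Col1a2, 0.31 for Vim, 0.32 for Actb and 0.046 for Npm1. With array weights the log2 change was 0.22 for Rmrp, 0.25 for Malat1, 0.11 for Col5a2, 0.087 for Col1a2, 0.11 for Vim, 0.18 for Actb and 0.076 for Npm1. Without the low array the log2 change was 0.068 for Rmrp, 0.21 for Malat1, 0.18 for Col5a2, 0.15 for Col1a2, 0.058 for Vim and 0.042 for Actb. Leaving out 1 replicate at a time gave -0.17 to 0.12 for Malat1, -0.19 to 0.056 for Col5a2, -0.12 to 0.042 for Col1a2, -0.11 to 0.024 for Vim, -0.13 to 0.032 for Actb, -0.018 to 0.20 for Rplp2 and -0.041 to 0.16 for Rps2. Calls of named genes lost by leaving out the low array alone were those of Smc4, Smc2, H2bc18, H2ac1, Pfkp, Timp2, Timp3 and Celf1, and without the replicate block those of Smc4, Smc2, H2bc18 and Timp3.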
